A study of Mus musculus with 30 samples.

Results

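Inflammasomes are cytosolic complexes in which a sensor, once it meets its trigger, gathers the adaptor ASC and the protease caspase-1. Caspase-1 matures IL-1β and IL-18 and cuts gasdermin D, whose freed end opens pores in the plasma membrane and can kill the cell by pyroptosis, and the second caspase of mice in this pathway, caspase-11, cuts gasdermin D after it has met bacterial lipopolysaccharide in the cytosol. In the central nervous system the pathway is best known from microglia, the resident macrophages. The mRNA levels of 9 genes of this pathway were followed here, chosen by name among 30952 genes of the table. They were the sensor genes Nlrp3, Aim2, Nlrp1b, Naip2 and Naip5, the adaptor gene Pycard, the caspase genes Casp1 and Casp4, and the pore gene Gsdmd. All 9 were found once each as protein-coding genes.

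RNA-seq was done on astrocytes and microglia sorted from spinal cords of female C57BL/6 mice, in 30 libraries, 15 of each cell type. Mice were naive (n = 4), or had EAE (experimental autoimmune encephalomyelitis, an autoimmune model of multiple sclerosis raised by immunization with MOG peptide 35 to 55 at 8 to 10 weeks of age) and were dosed for 3 days, 2 times a day by oral gavage, from a clinical score of around 1, either with vehicle (20% Captisol, EAE-vehicle, n = 6) or with the RIPK1 kinase inhibitor GSK'547 at 50 mg/kg (EAE-RIPK1inh, n = 5). The n values hold for each cell type. The paper gives them as numbers of mice and sorted both cell types from the cords of these mice. RIPK1 is a kinase of TNF receptor signalling that drives necroptosis and inflammatory transcription. In the paper's EAE protocol for this strain the peptide was given in complete Freund's adjuvant, and pertussis toxin was injected as well. The naive mice are labelled with no dosing, so a difference from naive holds disease, adjuvant, toxin and dosing together. Astrocytes were gated as GLAST+CD11b-CD45-CD140a- and microglia as CD11b+CD45intCX3CR1+ cells.

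Values are log2 FPKM, quantile-normalized by the authors over all 30 libraries. FPKM is scaled to length, and the annotation lists an exon length per gene, not per expressed transcript. Levels can therefore be set side by side between genes only roughly. A gene without signal in a library is listed at 0 or at a tied low value that only follows its place in the table. The number of genes above these tied values was 6728 to 22981 per library and was under 10000 in 4 libraries (naive astrocyte 2, EAE-vehicle astrocyte 1, EAE-RIPK1inh astrocyte 5 and naive microglia 4) and over 20000 in 3 (naive astrocyte 1, EAE-vehicle astrocyte 2 and EAE-vehicle microglia 2). All 10 microglia markers had signal in microglia, where their summed level was 13.5 to 15.4 against 5.68 to 8.40 in astrocyte libraries. The 8 astrocyte markers summed to 12.3 to 13.6 in astrocyte libraries, but 6 oligodendrocyte markers summed there to 12.2 to 15.7, so astrocyte libraries also held oligodendrocyte RNA.

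Gene positions in the deposited annotation were identical to GENCODE M21 (GRCm38) for all 9 genes. Nlrp3 (ENSMUSG00000032691) lies at chr11:59541568-59566956 on the plus strand and Nlrp1b (ENSMUSG00000070390) at chr11:71153102-71230733 on the minus strand. Naip2 (ENSMUSG00000078945, chr13:100144063-100202092) and Naip5 (ENSMUSG00000071203, chr13:100211739-100246323) are close relatives on the minus strand of 1 gene cluster, and reads shared between such copies may have been split by the counting. Casp1 (ENSMUSG00000025888, chr9:5298517-5307265) and Casp4 (ENSMUSG00000033538, chr9:5308828-5336783), whose mouse protein is called caspase-11, are neighbours on the plus strand. The others were Pycard (ENSMUSG00000030793, chr7:127989708-127993867, minus strand), which encodes ASC, Aim2 (ENSMUSG00000037860, chr1:173350879-173466040, plus strand) and Gsdmd (ENSMUSG00000022575, chr15:75862327-75867408, plus strand). Aim2, Pycard and Naip2 carry the annotation's mark for genes whose exons meet another gene, and their values may hold reads of that gene.

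The sequences just upstream of the 3 genes that rose in EAE, and of the paired Naip2 and Naip5, are shown because genes of a pathway that move together are often compared at their promoters. Each is the 250 bases before the RefSeq start (GRCm38.p6), 5′ to 3′ on the gene's own strand. Capitals mark the PU.1 core AGGAAGT, a motif of the myeloid factor PU.1, or the kappaB consensus, a motif of NF-κB, on either strand.
Pycard, chr7:127993868-127994117, minus strand: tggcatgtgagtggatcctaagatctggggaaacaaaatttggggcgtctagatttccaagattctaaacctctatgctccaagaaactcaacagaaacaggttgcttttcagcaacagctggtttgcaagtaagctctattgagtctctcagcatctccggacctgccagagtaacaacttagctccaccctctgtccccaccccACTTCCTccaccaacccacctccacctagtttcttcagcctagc
Casp1, chr9:5298267-5298516, plus strand: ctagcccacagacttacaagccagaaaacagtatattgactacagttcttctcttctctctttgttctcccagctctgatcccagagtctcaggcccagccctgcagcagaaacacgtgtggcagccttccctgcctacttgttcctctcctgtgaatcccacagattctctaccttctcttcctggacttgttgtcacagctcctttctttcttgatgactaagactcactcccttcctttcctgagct
Casp4, chr9:5308599-5308848, plus strand: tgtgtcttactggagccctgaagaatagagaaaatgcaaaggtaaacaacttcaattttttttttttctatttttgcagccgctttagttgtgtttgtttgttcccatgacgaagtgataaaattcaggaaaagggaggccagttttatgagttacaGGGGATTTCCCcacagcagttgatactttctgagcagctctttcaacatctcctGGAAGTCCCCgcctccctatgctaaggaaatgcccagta
Naip2, chr13:100202123-100202372, minus strand: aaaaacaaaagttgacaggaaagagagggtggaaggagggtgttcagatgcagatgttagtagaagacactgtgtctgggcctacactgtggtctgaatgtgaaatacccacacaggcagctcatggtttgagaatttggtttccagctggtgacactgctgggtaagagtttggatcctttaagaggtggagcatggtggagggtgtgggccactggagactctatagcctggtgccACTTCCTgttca
Naip5, chr13:100247337-100247586, minus strand: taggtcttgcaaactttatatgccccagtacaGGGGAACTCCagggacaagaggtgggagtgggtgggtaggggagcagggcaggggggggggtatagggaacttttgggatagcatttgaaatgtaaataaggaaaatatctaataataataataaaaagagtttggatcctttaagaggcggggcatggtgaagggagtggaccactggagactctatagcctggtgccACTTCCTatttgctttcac

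RefSeq windows were given for 8 of the 9 genes, 11 windows in all because Nlrp3, Casp4 and Nlrp1b have 2 starts each. The PU.1 core stood in 5 of the 11 windows, those of Pycard, Aim2, Naip2 and Naip5 and 1 of the 2 of Nlrp1b, and in 7.69% of the 32851 windows of all genes. The kappaB consensus stood in 4 windows, both overlapping windows of Casp4, 1 of Nlrp3 and that of Naip5, against 7.25% of all windows. Casp4 held 3 kappaB matches, 2 of them overlapping. Neither the core of the interferon-stimulated response element (2.98% of all windows) nor the STAT core TTCNNNGAA (7.02%) was found in any of the 11. The Naip2 and Naip5 windows shared a run of 34 bases close to the start. This run holds the PU.1 match of both windows, so these 2 matches are not independent. These are matches of letters in a short window, with no measure of binding.

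**Figure D1:**
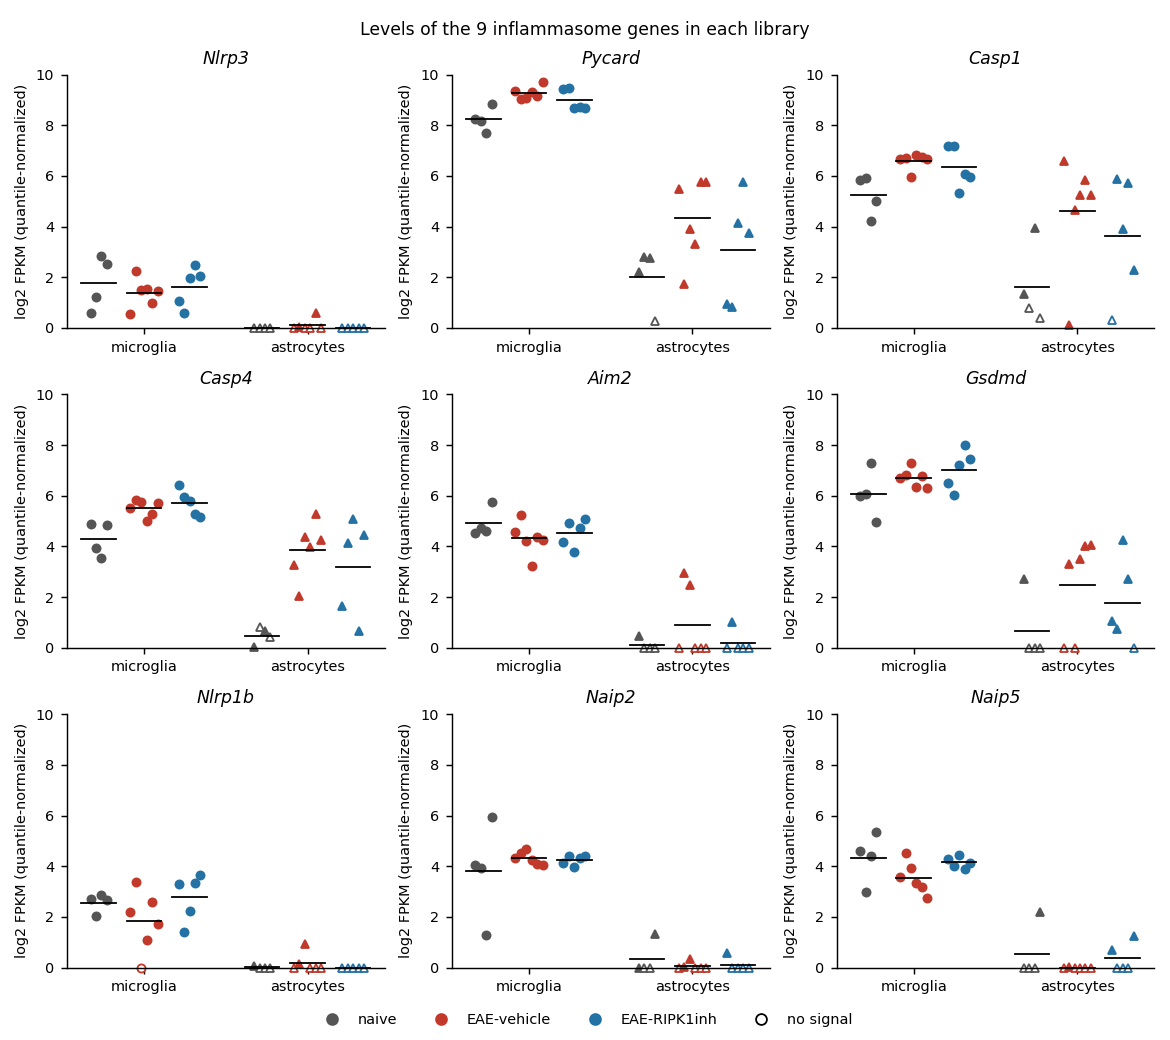
Level of each of the 9 genes in every library (log2 FPKM, quantile-normalized), microglia as circles on the left and astrocytes as triangles on the right of each panel, with group means as lines and hollow points for no signal. Pycard, Casp1 and Casp4 sit higher in the EAE-vehicle than in the naive microglia with no overlap, and 5 of the panels show astrocyte libraries mostly without signal.

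Microglia expressed all 9 genes in every treatment group, and the genes differed widely in level. Pycard was the most abundant, at 8.24 ± 0.468 in naive microglia (mean ± SD on the log2 scale, n = 4), followed by Gsdmd at 6.08 ± 0.948, Casp1 at 5.24 ± 0.792 and Aim2 at 4.90 ± 0.567. Naip5 (4.33 ± 1.00), Casp4 (4.31 ± 0.676) and Naip2 (3.80 ± 1.91) came next, and Nlrp1b (2.56 ± 0.367) and Nlrp3 (1.79 ± 1.07), the sensor most studied in disease, were lowest. Among the 8 neighbouring pairs in this order, the gap between means exceeded the larger SD of the pair only between Pycard and Gsdmd. In EAE-vehicle microglia, where the spread was smaller, 5 of 8 gaps did so, and the order was Pycard, Gsdmd, Casp1, Casp4, Naip2, Aim2, Naip5, Nlrp1b, Nlrp3. Gsdmd and Casp1, Naip2 and Aim2, and Nlrp1b and Nlrp3 could not be separated there. In the EAE-RIPK1inh group 4 of 8 gaps exceeded the SD. Casp4 stood below Aim2 and Naip5 in the naive order, by less than the larger SD of each pair, and above them in both EAE groups.

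The level of the pathway in astrocyte libraries was lower and more scattered. Pycard had signal in 3 of 4, 6 of 6 and 5 of 5 libraries of the naive, EAE-vehicle and EAE-RIPK1inh groups, Casp1 in 2, 6 and 4, Casp4 in 2, 6 and 5 and Gsdmd in 1, 4 and 4. Nlrp3 had signal in only 2 of the 15 astrocyte libraries, both EAE-vehicle (0.02 and 0.59), Nlrp1b in 3, Aim2 in 4, Naip5 in 4 and Naip2 in 5. The highest value of these 5 sensor genes in an astrocyte library was 2.95, for Aim2 in EAE-vehicle astrocyte 2, a library with over 20000 genes with signal. None of the 8 neighbouring gaps in the astrocyte order exceeded the larger SD in any of the 3 groups. In sorted cells measured in bulk, fewer cells carrying an mRNA and less of it per cell cannot be told apart.

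Microglia and astrocytes were compared within each treatment in 1 fit of all 30 libraries (limma, fold over 1.5 and adjusted p under 0.05). Labels do not say which libraries share a mouse, so the fit took them as independent. In naive mice all 9 genes were higher in microglia, where 11.8% of the 30952 genes tested passed in either direction and 5.88% were higher. The median difference of the 9 was 3.79 on the log2 scale, against -0.01 over all genes tested. Pycard was 75.1-fold higher in microglia (log2 difference 6.23 ± 0.847 SE, adjusted p = 2.82e-06), with signal in 3 of the 4 naive astrocyte libraries. Gsdmd differed by 5.40 ± 0.902 (adjusted p = 6.15e-05) and Nlrp3, the smallest of the differences, by 1.79 ± 0.438 (adjusted p = 0.00492). Gsdmd had signal in 1 naive astrocyte library and Nlrp3 in none, so these differences rest on values without signal and are given without a fold.

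In EAE-vehicle mice 7 of the 9 were higher in microglia (13.7% of all genes passed, 7.87% higher). Of these 7 calls, those of Nlrp3 (adjusted p = 0.161 and 0.0982) and Nlrp1b (0.0645 and 0.0913) were lost with quality weights and without the libraries of few or very many genes with signal. The 2 exceptions were Casp1, with a difference of 1.98 (95% CI 0.17 to 3.79, adjusted p = 0.156), and Casp4, with 1.65 (0.48 to 2.82, adjusted p = 0.0535). In EAE-RIPK1inh mice 8 of 9 were higher (12.8% of all genes, 7.11% higher), and again Casp1 was not, at 2.72 (0.74 to 4.71, adjusted p = 0.0638). The intervals of both caspase genes lay above 0 in each of these comparisons. Casp1 in EAE-vehicle mice was called under none of the alternatives, while Casp4 there and Casp1 in EAE-RIPK1inh mice were called under some, among them a test of protein-coding genes only (adjusted p = 0.0333 for Casp4 in EAE-vehicle and 0.0386 for Casp1 in EAE-RIPK1inh mice). The naive call of Casp1 was lost in 7 of 40 alternatives, including those without naive astrocyte 1, 2 or 4 or naive microglia 1 or 2 (adjusted p up to 0.108), and that of Nlrp3 in 3 of 39 (up to 0.0851).

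The next question was how the genes responded to EAE in microglia. The adaptor and both caspase genes rose together in EAE-vehicle microglia, by 2.03-fold for Pycard, 2.55-fold for Casp1 and 2.30-fold for Casp4, and none of their values overlapped with naive. The pore gene and the 5 sensor genes did not pass the test. At the study's own cutoff (fold over 1.5 and unadjusted p under 0.05) 3 of 9 genes were therefore called, all higher. Of the 28958 genes tested, 12.0% were called and 6.13% were higher. Only the cutoff is the study's, since the paper names a paired t test and limma was used here without pairing. The median of the 9 differences was 0.52 on the log2 scale, against -0.02 over all genes tested.

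Pycard encodes the adaptor ASC, through which several sensors reach caspase-1. Its level was 8.26, 8.15, 7.71 and 8.85 in the 4 naive microglia libraries and 9.02 at the lowest, 9.23 at the median and 9.70 at the highest of 6 EAE-vehicle libraries. Every EAE-vehicle value lay above every naive value. The log2 difference was 1.02 ± 0.237 (SE, 95% CI 0.51 to 1.53, adjusted p = 0.0239, limma), and the two-sided exact permutation test over the 210 splits gave p = 0.00476, the smallest it can give. This was the only gene of the 9 with an adjusted p under 0.05 in this comparison, and it lay between 0.00662 and 0.0856 over the 26 alternatives, under 0.05 in 20 of them.

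Casp1, the protease that all canonical inflammasomes share, read 5.83, 5.91, 4.22 and 5.01 in naive microglia and 5.95, 6.70 and 6.84 (lowest, median, highest) in EAE-vehicle microglia. The groups did not overlap, but the gap between them, from 5.91 to 5.95, was small. The difference was 1.35 ± 0.403 (95% CI 0.49 to 2.22, adjusted p = 0.0872; exact permutation p = 0.00476). Casp4 read 4.89, 3.95, 3.53 and 4.85 in naive and 4.99, 5.60 and 5.82 in EAE-vehicle microglia, again without overlap. Its difference was 1.20 ± 0.319 (95% CI 0.52 to 1.89, adjusted p = 0.0509; exact permutation p = 0.00476). Both genes passed the study's cutoff under all 26 alternatives, with adjusted p between 0.0193 and 0.240 for Casp1 and between 0.0191 and 0.148 for Casp4. Of all genes tested, 5.26% did not overlap between these groups, and 2.93% did so with EAE-vehicle higher.

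Gsdmd, the executor of pyroptosis, read 6.00, 6.07, 7.28 and 4.96 in naive microglia and 6.31, 6.73 and 7.28 in EAE-vehicle microglia, with overlapping groups. Its difference of 0.62 (95% CI -0.29 to 1.53, adjusted p = 0.576; exact permutation p = 0.181) did not pass, and the interval leaves room for a rise of up to 2.89-fold. Without naive microglia 3, the highest naive library, the difference was 1.02 and passed the cutoff. The 8 neutrophil markers summed to 14.1 in that library against 8.48 to 10.9 in the other 3 naive microglia libraries. The highest Gsdmd of all microglia libraries, 8.00, came from EAE-RIPK1inh microglia 4, which had the lowest neutrophil sum of them, 7.87. The part of neutrophil RNA in the Gsdmd level was not tested.

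Among the sensors, Nlrp3, which answers potassium loss from the cell, was at 0.58, 1.21, 2.83 and 2.54 in naive and at 0.55, 1.49 and 2.24 in EAE-vehicle microglia. The difference was -0.41 (95% CI -1.51 to 0.69, adjusted p = 0.785). Aim2, the sensor of cytosolic double-stranded DNA, differed by -0.59 (-1.40 to 0.22, adjusted p = 0.537), Nlrp1b, a sensor of pathogen proteases, by -0.73 (-2.01 to 0.55, adjusted p = 0.683), and Naip5, which binds bacterial flagellin, by -0.79 (-1.68 to 0.09, adjusted p = 0.458). These 4 estimates were all below 0 and none passed. Each interval also reached above 0, so a fall, no change and a rise within it cannot be told apart. Without naive microglia 2 or without EAE-vehicle microglia 2 the Naip5 difference passed the study's cutoff, in the lower direction, with values between -1.25 and -0.45 over the libraries left out.

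Naip2, which binds a rod protein of bacterial secretion systems, had the widest naive values of the 9, at 4.06, 3.92, 1.29 and 5.92, against 4.05 to 4.68 in the 6 EAE-vehicle libraries. Its difference was 0.52 (95% CI -0.75 to 1.79, adjusted p = 0.785) and lay between -0.32 and 1.23 as each library was left out. The value of 1.23, without naive microglia 4, passed the study's cutoff (unadjusted p = 0.0219, limma fit over all genes, adjusted p = 0.220). That library had 8710 genes with signal, and the low value of 1.29 came from naive microglia 3, the naive library with the most neutrophil marker RNA. EAE-vehicle microglia 3, with the most neutrophil marker RNA of its group, had the highest Naip2 of that group, 4.68.

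**Figure D2:**
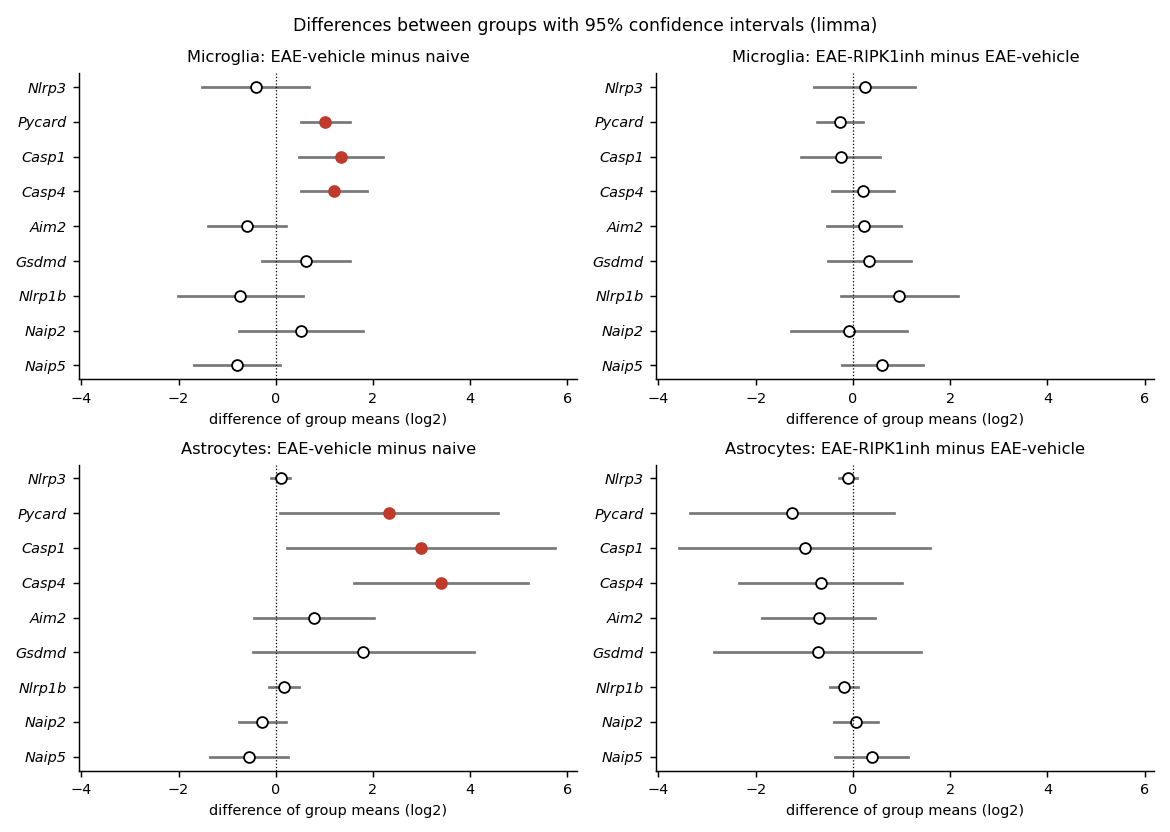
Differences of group means on the log2 scale with 95% confidence intervals (limma) for the 9 genes, by cell type in rows and by comparison in columns, filled red where the study's cutoff was passed. Pycard, Casp1 and Casp4 are filled in the EAE comparison of both cell types, and no gene is filled in the comparison of EAE-RIPK1inh with EAE-vehicle.

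Other cell markers moved in the same comparison. The microglia markers were lower in EAE-vehicle, 8 of 10 called and all 10 below 0 with a median of -1.69. All 8 monocyte markers were above 0 with a median of 1.91, and 4 were called, and their summed level was 8.92 to 11.3 in naive and 9.92 to 12.0 in EAE-vehicle microglia. Ccr2 and F10 of this list had no signal in any naive microglia library. Naive microglia 3, at 11.3 with signal for 5 of the 8 markers, lay above 4 of the 6 EAE-vehicle libraries in this sum. It also had the highest neutrophil marker sum of the naive microglia, 14.1, and the lowest Pycard, Casp1 and Casp4 of all 15 microglia libraries. EAE-vehicle microglia 5, with the lowest EAE-vehicle monocyte sum of 9.92, read 9.14 for Pycard, 6.73 for Casp1 and 5.28 for Casp4, all above the naive values. The highest monocyte sum, 12.0 in EAE-vehicle microglia 6, came with the highest Pycard, 9.70. The part of monocyte RNA in the rise of the 3 genes was not tested.

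Whether the RIPK1 inhibitor altered the genes in microglia was examined by comparing EAE-RIPK1inh with EAE-vehicle. None of the 9 genes passed the study's cutoff (limma; the smallest adjusted p was 0.930), where 1.76% of all genes tested did, and 0 of 9 reached an unadjusted p under 0.05 without the fold, where 2.87% did. Pycard read 9.41, 9.47, 8.68, 8.72 and 8.69 in the 5 inhibitor libraries, a difference of -0.27 (95% CI -0.75 to 0.21). Its 5 values fell into 2 that were as high as in EAE-vehicle microglia and 3 below the lowest of them. Casp1 showed the same 2 high libraries, at 7.19, 7.19, 5.32, 6.06 and 5.96 (difference -0.25, 95% CI -1.06 to 0.56). Casp4, at 6.41, 5.95, 5.80, 5.27 and 5.15, differed by 0.21 (-0.43 to 0.85).

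The intervals bound what the inhibitor could have done to these 3 mRNAs. They reached down to a 0.596-fold level for Pycard, 0.479-fold for Casp1 and 0.740-fold for Casp4. The naive mean of Casp1, 1.35 lower on the log2 scale, lay outside its interval, as did the naive means of Pycard and Casp4. Each naive mean comes from 4 libraries with a spread of their own, which these intervals leave out, so they do not decide a return to naive. The direct comparison with naive is given below. Gsdmd read 6.50, 6.02, 7.19, 8.00 and 7.44 (difference 0.33, -0.52 to 1.19). Nlrp3 (0.24, -0.79 to 1.28), Aim2 (0.22, -0.54 to 0.98) and Naip2 (-0.08, -1.27 to 1.11) also had intervals on both sides of 0.

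The largest estimates with the inhibitor were those of 2 sensor genes. Nlrp1b read 3.32, 1.41, 2.23, 3.33 and 3.67 with the inhibitor and 2.18, 3.40, no signal, 1.10, 2.59 and 1.74 with vehicle, a difference of 0.96 (95% CI -0.24 to 2.16; exact permutation p = 0.188). Naip5 read 3.88 to 4.44 with the inhibitor and 2.74 to 4.51 with vehicle, a difference of 0.60 (-0.23 to 1.43; exact permutation p = 0.0736). Neither passed, but Nlrp1b did without EAE-vehicle microglia 2 or EAE-RIPK1inh microglia 2. Both did so, along with Gsdmd, when libraries were weighted by quality, and both did when the libraries with few or with very many genes with signal were left out (1.27 for Nlrp1b and 0.80 for Naip5), with adjusted p of 0.491 in the latter.

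Against naive microglia, 4 of 9 genes were called higher in EAE-RIPK1inh microglia (10.1% of all genes tested were called, 5.35% higher). Casp4 was 2.66-fold higher (log2 difference 1.41 ± 0.331, adjusted p = 0.0358, over all alternatives 0.0120 to 0.168) without overlap between groups, as for 5.43% of all genes and 2.72% in that direction (exact permutation p = 0.00794, the smallest for 4 against 5). Pycard was 1.68-fold (0.75 ± 0.246, adjusted p = 0.166), Casp1 2.14-fold (1.10 ± 0.419, adjusted p = 0.262) and Gsdmd 1.94-fold higher (0.95 ± 0.441, adjusted p = 0.394), all 3 with overlapping groups. The Gsdmd call was lost in 18 of 26 alternatives, the Casp1 call in 6, among them those without naive microglia 3 or EAE-RIPK1inh microglia 1 or 2, and the Pycard call without naive microglia 3. This comparison shares its naive libraries with the one above and is no second test of it.

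In astrocyte libraries the same 3 genes were called higher in EAE-vehicle than in naive mice, Pycard, Casp1 and Casp4, where 6.71% of the 30718 genes tested were called and 2.69% were higher. The median of the 9 differences was 0.79, against 0.03 over all genes tested. Casp4 was the most stable of the 3 calls. It had signal in only 2 naive libraries, at 0.02 and 0.64, while the other 2 stood at tied values without signal, and it read 2.06, 4.11 and 5.30 (lowest, median, highest) in the 6 EAE-vehicle libraries. Every EAE-vehicle value exceeded every naive value, as for 1.02% of all genes, with 2.30% in either direction. The difference was 3.39 ± 0.841 (95% CI 1.60 to 5.19, adjusted p = 0.104, over the alternatives 0.0201 to 0.333; exact permutation p = 0.00476), and it was called under all 26 alternatives.

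Casp1 and Pycard gave weaker evidence. Casp1 read 1.36 and 3.95 in naive astrocyte libraries 1 and 3 with no signal in the other 2, and 0.12, 5.25 and 6.58 in the EAE-vehicle libraries (difference 2.98 ± 1.29, 95% CI 0.23 to 5.74, adjusted p = 0.629; exact permutation p = 0.0714). Pycard read 2.20, 2.78, 2.78 and no signal in naive and 1.75, 4.70 and 5.78 in EAE-vehicle libraries (2.32 ± 1.05, 95% CI 0.08 to 4.57, adjusted p = 0.679; exact permutation p = 0.0476). Groups overlapped for both genes. The lowest EAE-vehicle value of both came from library 2, 1 of those with over 20000 genes with signal. Without the libraries under 10000 genes with signal neither was called (limma adjusted p = 0.761 for Casp1 and 0.697 for Pycard), and the Casp1 call was also lost without naive astrocyte 1, 2 or 4 or EAE-vehicle astrocyte 1, 3, 4, 5 or 6, the Pycard call without naive astrocyte 1 or 4 or EAE-vehicle astrocyte 1, 3, 5 or 6.

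Gsdmd had signal in naive astrocyte 1 only (2.71) and in 4 of 6 EAE-vehicle libraries, at 3.32 to 4.05. Its difference of 1.80 (95% CI -0.47 to 4.07, adjusted p = 0.834) did not pass. It passed on leaving out naive astrocyte 1, EAE-vehicle astrocyte 1 or EAE-vehicle astrocyte 3, with values of 1.49 to 2.48 over the libraries left out. Most libraries had no signal for the 5 sensor genes, but Aim2 read 2.95 and 2.48 in EAE-vehicle astrocyte 2 and 3, and Naip5 2.18 and Naip2 1.34 in naive astrocyte 4. The endothelial markers summed to 7.96 in naive astrocyte 4, against 0.865 to 2.23 in the other naive astrocyte libraries. A link of its Naip values with endothelial RNA was not tested. The differences of the 5 sensor genes lay between -0.54 and 0.79, none called.

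Markers of several kinds of cells outside the astrocyte gate rose alongside, but not those of all kinds. The median sums of oligodendrocyte precursor, dendritic cell and B cell markers were lower in EAE-vehicle than in naive astrocyte libraries. Those of neuron and endothelial markers were higher. The ranges of the groups overlapped for each of these lists. Of 8 monocyte markers 6 were called higher in EAE-vehicle astrocyte libraries (median difference 3.09), of 7 T cell markers 5 (3.81), of 10 microglia markers 3 (1.03) and of 6 oligodendrocyte markers 4 (2.64). The monocyte markers summed to 0.663 to 5.69 in naive, 7.21 to 9.92 in EAE-vehicle and 4.77 to 11.0 in EAE-RIPK1inh libraries, and Ms4a6c had no signal in any naive library. T cell markers summed to 1.01 to 3.62, 3.40 to 9.30 and 3.07 to 9.08, and Cd3d, Cd2 and Lck had no signal in naive libraries. The 8 neutrophil markers summed to 0.315 to 4.18 in naive, 4.97 to 7.94 in EAE-vehicle and 2.96 to 11.0 in EAE-RIPK1inh libraries. Among the T cell sums, EAE-vehicle astrocyte 4 stood low, at 3.40, and read 5.25 for Casp1, 3.97 for Casp4 and 3.32 for Pycard. EAE-vehicle astrocyte 2 had a high T cell sum, 8.40, but the lowest microglia marker sum of its group, 5.91, with the lowest Casp1, 0.12, and Pycard, 1.75. EAE-vehicle astrocyte 5 and 6 had the highest monocyte sums of their group, 9.92 and 9.75, with the highest Pycard, 5.76 and 5.78. The microglia marker sum was highest in EAE-vehicle astrocyte 6 and 1, at 8.40 and 8.21, with Pycard at 5.78 and 5.50 and Casp1 at 5.26 and 6.58. The part of RNA from these cells in the astrocyte values was not tested.

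**Figure D3:**
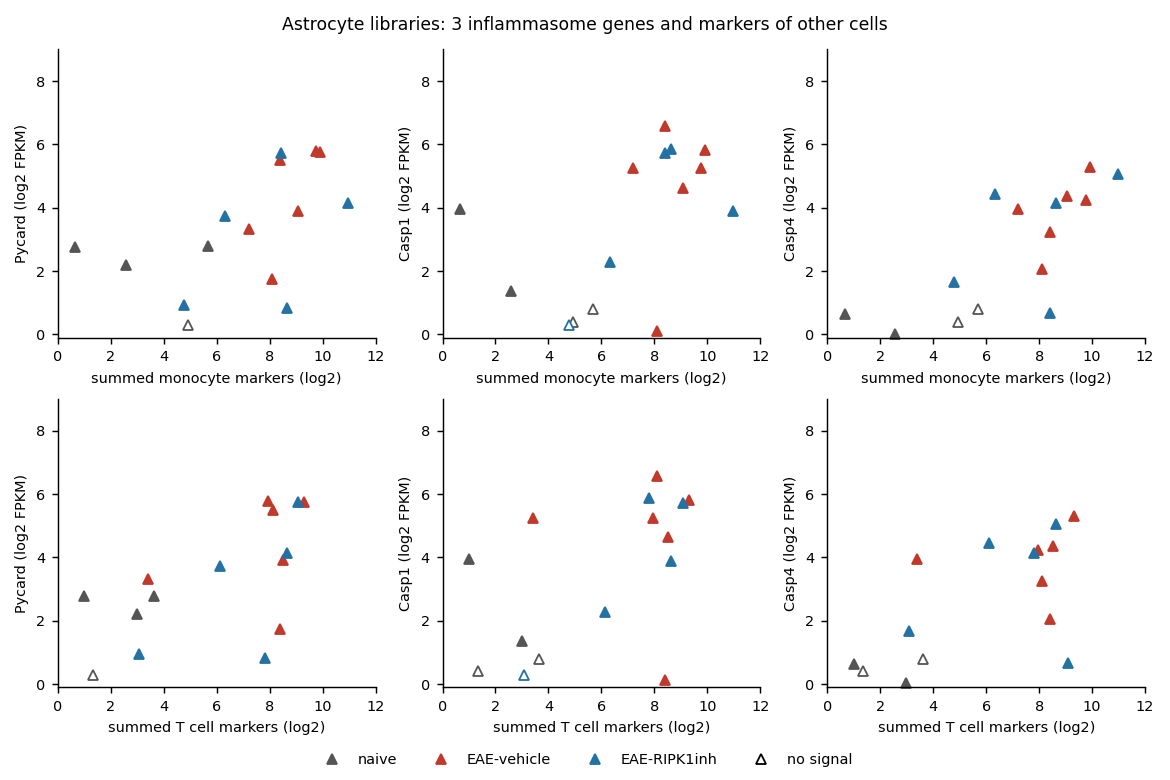
Level of Pycard, Casp1 and Casp4 (log2 FPKM) in each of 15 astrocyte libraries against the summed level of 8 monocyte markers (top) and 7 T cell markers (bottom), both on the log2 scale, with colours for treatment groups and hollow points for no signal. Naive libraries lie at the left with monocyte sums up to 5.69, and EAE-vehicle libraries lie at 7.21 or above.

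With the inhibitor, none of the 9 genes passed in astrocytes (limma; smallest adjusted p 0.840; 3.02% of all genes tested were called), and 0 of 9 reached an unadjusted p under 0.05 without the fold, where 3.25% did. Casp4 read 1.67, 4.14, 5.06, 0.68 and 4.45 in EAE-RIPK1inh libraries, a spread as wide as the EAE difference itself, and differed from EAE-vehicle by -0.66 (95% CI -2.35 to 1.02). Casp1, at no signal, 5.87, 3.90, 5.74 and 2.29, differed by -0.99 (-3.58 to 1.59), and Pycard, at 0.95, 0.83, 4.15, 5.74 and 3.74, by -1.25 (-3.36 to 0.85). The intervals of Pycard and Casp1 reached the naive mean, while that of Casp4 did not. Casp4 had signal in only 2 of 4 naive libraries, and the interval leaves out the naive spread, so it does not decide a return to naive. Against naive libraries, Casp4 was the only gene called in EAE-RIPK1inh astrocytes, at 2.73 ± 0.874 (adjusted p = 0.604; exact permutation p = 0.0556; 4.63% of all genes called, 1.98% higher), and it was lost without the libraries of few or very many genes with signal (2.36).

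The EAE differences of microglia and astrocytes were set against each other by an interaction term in the fit of all 30 libraries. Only 1 of the 9 genes passed at an unadjusted p under 0.05, Casp4, a share close to the 9.06% of the whole table that did. Its EAE difference was 2.19 ± 0.901 smaller on the log2 scale in microglia than in astrocytes (95% CI of the interaction term -4.04 to -0.34, limma adjusted p = 0.385, over the alternatives 0.133 to 0.579), and it missed the threshold when 1 unit was added before taking log2 (-1.56). For Casp1 (-1.63, 95% CI -4.49 to 1.23) and Pycard (-1.30, -3.55 to 0.94) the intervals covered 0. The inhibitor's difference did not pass between cell types for any of the 9 genes (3.44% of all genes had p under 0.05; intervals of all 9 covered 0).

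Other genes of the pathway were taken from a list of 45, of which 41 were in the table and 4 (Nlrp6, Pyhin1, Pydc3 and Pydc4) were not analysed here. In EAE-vehicle microglia 15 of 41 were called, 13 higher and 2 lower, where 12.0% of all genes were called, 6.13% higher and 5.86% lower. The median difference was 0.46, and 13 of these had an adjusted p under 0.05, as 3.92% of all genes did. Among 9 upstream regulators 4 rose and 2 fell. Gbp2, a guanylate-binding protein that opens bacteria and their vacuoles to the cytosolic sensors, rose by 8.07 ± 0.438 (adjusted p = 5.70e-08), from 1.49 ± 1.26 to 9.56 ± 0.27. Irgm1, an immunity-related GTPase, rose by 3.26, Panx1, a membrane channel, by 2.37 and Gbp5, a guanylate-binding protein, by 2.36. Txnip, which binds thioredoxin and has been tied to Nlrp3, fell by 2.69 (adjusted p = 0.000503), and P2rx7, the ATP-gated channel, fell by 0.92 (adjusted p = 0.0491).

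Of 10 other sensor genes, 3 rose in EAE-vehicle microglia, all AIM2-like receptors: Ifi205 by 5.25 (adjusted p = 8.99e-06), Ifi204 by 4.31 (adjusted p = 0.00122) and Mndal by 2.51 (adjusted p = 0.00723). Aim2 itself did not pass, as given above. Nlrc4, the partner without which Naip2 and Naip5 cannot build an inflammasome, was at 0.47 ± 0.95 in naive, 0.36 ± 0.40 in EAE-vehicle and 0.27 ± 0.27 in EAE-RIPK1inh microglia. Of 6 other caspases and pore genes only Casp12, an inflammatory caspase of the same gene cluster as Casp1 and Casp4, rose, by 2.66 (adjusted p = 0.00812).

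Of 10 cytokine and receptor genes 5 were called higher in EAE-vehicle microglia. Il18bp, the secreted protein that neutralises IL-18, rose by 7.35 ± 0.262 (adjusted p = 4.80e-10), from 0.84 ± 0.64 to 8.20 ± 0.23. Il1rn, the natural antagonist of the IL-1 receptor, rose by 3.09 (adjusted p = 0.00633) and Il18rap, a chain of the IL-18 receptor, by 1.91 (adjusted p = 0.0371). Il1b and Il1r2 were called without reaching an adjusted p of 0.05. Il18, the substrate of caspase-1, was at 5.74 ± 0.48 in naive and 6.20 ± 0.24 in EAE-vehicle microglia and was not called. None of the 6 genes that restrain inflammasomes was called.

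In EAE-vehicle astrocytes 7 of the 41 were called, all higher, where 6.71% of all genes were called and 2.69% higher. The median difference was 1.09, and 2 had an adjusted p under 0.05, as 0.579% of all genes did. These were Gbp2, which rose by 7.91 ± 0.429 (adjusted p = 1.03e-07), and Irgm1, which rose by 5.66 ± 0.522 (adjusted p = 3.89e-05), and for both, every EAE-vehicle library exceeded every naive one. Il18bp (3.66, adjusted p = 0.0816), Casp12 (3.53, adjusted p = 0.103), Mndal (3.29, adjusted p = 0.409), Tnfaip3, which encodes the NF-κB restraining enzyme A20 (3.22, adjusted p = 0.107), and Casp8 were called without it. Il18 read 5.35 ± 0.95 in naive and 5.39 ± 1.79 in EAE-vehicle astrocyte libraries and was not called.

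**Figure D4:**
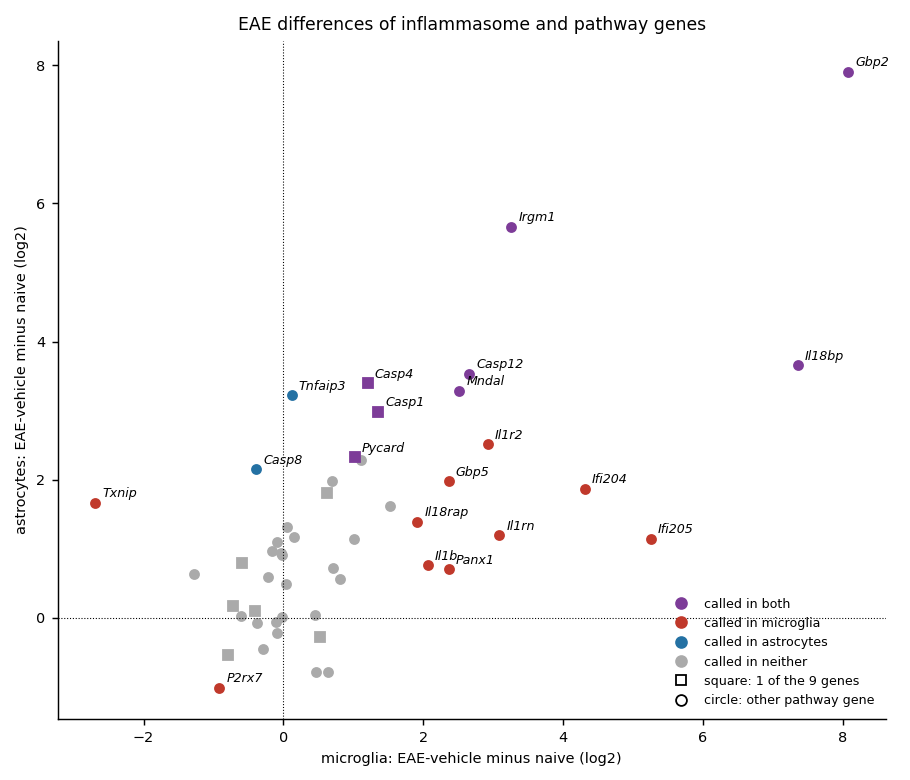
EAE-vehicle minus naive differences (log2) in microglia on the x axis and in astrocytes on the y axis for the 9 genes (squares) and the 41 other pathway genes (circles), coloured by where the study's cutoff was passed. Gbp2 stands at 8.07 and 7.91 in the upper right corner, and Pycard, Casp1 and Casp4 lie together at 1.02 to 1.35 in microglia and 2.32 to 3.39 in astrocytes.

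With the inhibitor, 3 of the 41 pathway genes were called in microglia, where 1.76% of all genes were, and 2 in astrocytes, where 3.02% were, none with an adjusted p under 0.05. The astrocyte count lies close to that share. In microglia Mndal fell by 1.03 (adjusted p = 0.930) and Ifi205 by 1.02 (adjusted p = 0.930), and Kcnk6, a potassium channel, rose by 0.81 (adjusted p = 0.930). In astrocytes Gbp2 fell by 1.01 (adjusted p = 0.840) and Dpp8, a protease that holds Nlrp1b inactive, by 1.33 (adjusted p = 0.840). Each of these 5 calls was lost in 7 to 9 of 26 alternatives.

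Across the 15 microglia libraries, the 3 genes that rose in EAE also went up and down together, with Pearson r of 0.81 for Pycard and Casp1, 0.81 for Pycard and Casp4 and 0.69 for Casp1 and Casp4. These libraries fall into the 3 treatment groups, so the values hold the EAE difference too and are given as a description. Nlrp3 went the other way from Casp1, at -0.65. The genes whose pattern was most like each of the 9, among 9695 other protein-coding genes that averaged 1 or more on the log2 scale, were Rpl35 (0.932), Pomp and Ptrhd1 for Pycard, Hacd2 (0.934), Ncoa7 and Dctn3 for Casp1, Pim1 (0.912), Nvl and 1810022K09Rik for Casp4, and Grina (0.946), Triobp and Camk1d for Gsdmd. For the sensors they were Psd (0.915), Mdc1 and Nfatc2 for Nlrp3, Ikbkb (0.921), Brap and Ccdc17 for Aim2, Mapk8ip3 (0.889), Mthfsd and Chmp1a for Nlrp1b, Qdpr (0.947), Gpatch2l and Rab9 for Naip2, and Tecpr1 (0.813), Tpp2 and Sppl3 for Naip5. With 9695 candidates and 15 libraries, high values are found for any gene.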

How the data were processed

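Single-cell suspensions of spinal cord were sorted, mRNA was captured with oligo(dT) and amplified, and libraries were sequenced by the authors, who processed the reads in OmicSoft Array Studio. The aligner, annotation release, genome build and offset of the log scale are not given in the sources used here. The deposited values are log2 FPKM for 30952 genes, and all 30 libraries hold the same sorted values up to 15.3397, with 7971 genes at 0 in each, so they were quantile-normalized together. This step sets every library to 1 distribution, and read depth is unknown. It can hide a change shared by most genes and it shifts low values in libraries with few genes with signal.

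Genes with the 9 names and a protein-coding label were joined by gene identifier. The 3 treatment groups of each cell type were fitted together with limma 3.58.1 in R 4.3.3 (moderated test with a trend, on the log2 values as deposited), and cell types and interactions in 1 fit of all 30 libraries. P-values were adjusted by the Benjamini-Hochberg method over all genes tested. A treatment difference was called at the study's cutoff (fold over 1.5 and unadjusted p under 0.05). The paper applied it to a paired t test, so calls here need not equal the paper's. A cell type difference was called at a fold over 1.5 and an adjusted p under 0.05, and an interaction at an unadjusted p under 0.05. Exact permutation tests over samples were two-sided. Libraries are separate samples by their labels, which name no mice, so p-values measure the spread between these samples. By the paper, both cell types came from the same mice. The fit of all 30 libraries leaves this link out, for cell type differences and interactions alike.

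The genes, pathway and marker lists were chosen with earlier results of these data known. Of the pathway genes, those with an adjusted p under 0.05 and the 6 largest called differences per comparison were named, and for each of the 9 genes the 3 most alike genes by Pearson r. Il1b, Il1r2, Il18, Nlrc4 and Casp8 were named after their values were seen. Alternatives were a filter on low values, 1 unit added before log2, no trend, quality weights, median centring, values without signal set to 0, protein-coding genes only, the compared groups only, a replicate block and leaving out each library. Same-numbered libraries deviated together (r over 0.1) in 7 of 13 pairs of microglia and 2 of 13 of astrocytes, and since not every pair did, numbers were not taken as pairs. The test was checked on simulated, normally distributed values of well-expressed genes without a floor. That check does not cover genes that are low or mostly without signal. Figures were drawn with matplotlib 3.10.9 in Python 3.11.15.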

Additional observations from a re-analysis of the deposited data

Results flagged for a closer look

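In 7 of 44 gene and group combinations tested, the highest or lowest library stood apart from the others of its group, where chance gives about 1 in 20 for groups with signal in their libraries. That rate does not hold for the 4 combinations named last, where 1 value stands against libraries mostly without signal. In microglia, Casp1 was low in EAE-vehicle library 3, at 5.95, and Aim2 was high in naive library 4, at 5.75. In astrocytes, Casp1 was low in EAE-vehicle library 2, at 0.12. The other 4 were single astrocyte libraries with signal for a sensor gene that most others lacked: Nlrp3 at 0.59 in EAE-vehicle library 5, Nlrp1b at 0.95 and Naip2 at 0.35 in EAE-vehicle library 3, and Naip2 at 1.34 in naive library 4.

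The EAE difference of Casp4 in microglia minus that in astrocytes was -2.19 on the log2 scale (interaction term in limma, unadjusted p = 0.0219, adjusted p = 0.385). Only 1 of the 9 genes passed at an unadjusted p under 0.05, close to the share of all genes, 9.06%. Casp4 had signal in 2 of 4 naive astrocyte libraries. The term missed the threshold with 1 unit added before log2 (-1.56, limma unadjusted p = 0.0585).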

How the results depend on the processing

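Over all alternatives other than leaving out 1 library, 1200 of the values of single genes kept their direction and side of the threshold, 18 changed sign without being called, 44 were called no longer, 25 were newly called and none was called in the opposite direction. The causes were not tested.

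Counts of the 9 genes called moved by over 1.5 times as follows. With quality weights 3 were called for the inhibitor in microglia, 5 for EAE in astrocytes (with Naip5 lower), 3 for EAE-RIPK1inh against naive astrocytes and 2 for the EAE interaction, and of the pathway genes 8, 17 and 4 for the inhibitor in microglia, EAE in astrocytes and the inhibitor in astrocytes. With only the 2 groups compared, 2 were called for EAE-RIPK1inh against naive microglia and 1 pathway gene for the inhibitor in each cell type. The inhibitor in astrocytes also left 1 pathway gene with the filter on low values, with centred libraries and without libraries under 10000 genes with signal. With 1 unit added, 0 were called for the EAE interaction (limma; at unadjusted p under 0.05). With the replicate block 1 was called for EAE in astrocytes and 0 pathway genes for the inhibitor there. Not every same-numbered pair of microglia libraries deviated together, but all 3 pairs of replicate 1 (r of 0.17 to 0.36) and of replicate 3 (0.12 to 0.27) did, so a link between those libraries is not settled and the block is given as an alternative.

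The 2 alternatives on libraries were chosen after seeing the data. Without libraries under 10000 genes with signal, 1 gene was called for EAE in astrocytes and 2 for the EAE interaction. Without those over 20000 as well, the counts were 1 and 2, with 2 for the inhibitor in microglia, 0 for EAE-RIPK1inh against naive astrocytes and 1 for the inhibitor interaction.

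With each library left out, counts ranged from 0 to 1 for the inhibitor in microglia (1 without EAE-vehicle 2 or EAE-RIPK1inh 2) and from 0 to 5 for its pathway genes, from 2 to 4 for EAE-RIPK1inh against naive microglia (2 without naive 3), from 1 to 3 for EAE in astrocytes (1 without naive 4 or EAE-vehicle 5 or 6), from 1 to 3 for pathway genes with the inhibitor there, from 1 to 2 for EAE-RIPK1inh against naive astrocytes (2 without EAE-RIPK1inh 1), from 1 to 2 for the EAE interaction and from 0 to 1 for the inhibitor interaction. The 4 libraries with under 10000 genes with signal limit the detection of low genes such as Nlrp3 and Nlrp1b.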

Other observations

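Neutrophil RNA varied between microglia libraries more than between treatment groups. The 8 neutrophil markers summed to 8.48 to 14.1 in naive, 8.61 to 13.5 in EAE-vehicle and 7.87 to 15.1 in EAE-RIPK1inh microglia, and were highest in library 3 of each of the 3 groups. Gsdmd read 7.28, 7.28 and 7.19 in these 3 libraries, the highest value of the naive and of the EAE-vehicle group and the middle value of the EAE-RIPK1inh group. The highest Gsdmd of all microglia libraries, 8.00, came from EAE-RIPK1inh microglia 4, which had the lowest neutrophil sum, 7.87. Nlrp1b was without signal in EAE-vehicle microglia 3, but its 2.86 in naive microglia 3 was the highest of the naive microglia. Naip2 had its lowest microglia value, 1.29, in naive microglia 3, but its 4.68 in EAE-vehicle microglia 3 was the highest of that group. In EAE-RIPK1inh microglia 3 the 2 genes read 2.23 and 3.96. A link of these values with neutrophil RNA was not tested.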
